A study of Arabidopsis thaliana with 9 samples.

Results

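The genes described here were chosen by name, as receptor-like, calcium-dependent and MAP kinases. A gene qualified if a probe set named it alone and if it was AT1G69730, described in the selection as wall-associated kinase-like, or if its symbol began with CRK, CPK, CIPK, MPK, MKK, MAPKKK, PERK, WAK, SNRK or PBL. The choice found 2 of the 13356 genes that a probe set named alone, AT1G69730 and CRK, and each had 1 probe set. The gene behind the symbol CRK is AT4G01710, which RefSeq lists also as CROOKED and ARPC5, a subunit of the ARP2/3 complex that starts new actin filaments. It is not a kinase, so AT1G69730 was the only kinase gene that the choice found, and the genes are called by their own names from here on. RefSeq holds 171 genes whose symbols carry these prefixes, and 1 of them, CRK, was named alone by a probe set in the annotation used here.

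The RNA of whole Arabidopsis thaliana seedlings, labelled ecotype col 1, was profiled on 9 Affymetrix arrays. The seedlings were 21 days old, received no treatment and were raised on MS medium with no antibiotic in it. There were 3 arrays each of line 22, which expresses the rice gene OsSAP11, of line 25, which expresses the rice gene OsRLCK253, and of untransformed wild type. The product of OsSAP11 is a zinc-finger protein of the A20/AN1 type, named stress-associated protein, and that of OsRLCK253 is a kinase of the receptor-like cytoplasmic type. Each transgene was represented by 1 line, so effects of the transgene and of the line cannot be told apart, and the promoter that drives the transgenes is not stated in the labels. Per the labels the replicates are biological. The purpose of the comparison, per the design text, was to set each line against untransformed seedlings.

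Wall-associated kinases and their relatives are receptor kinases of the plant surface, with a part outside the cell that can contact the wall and a kinase domain inside. They belong to the large group of receptor-like kinases, through which plant cells sense pathogens, damage and growth. Receptor-like cytoplasmic kinases, which lack the outer part, pass on such signals, and calcium-dependent and MAP kinases act further downstream.

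The kinase gene AT1G69730 was higher in both lines than in wild type, and higher in the OsRLCK253 line than in the OsSAP11 line. Its signal was 168, 137 and 183 on the 3 arrays of the OsSAP11 line, against 25.3, 35.6 and 39.6 on the wild type arrays. On the 3 arrays of the OsRLCK253 line it was 261, 338 and 348, against the same wild type values. Every array of the OsSAP11 line stood above the highest wild type array, as for 17.8% of all probe sets. The same held for the OsRLCK253 line, as for 34% of all probe sets. For AT1G69730 the 3 groups did not overlap. The mean signal was 163 ± 23.5 in the OsSAP11 line, 316 ± 47.6 in the OsRLCK253 line and 33.5 ± 7.38 in wild type (SD, n = 3 each). The ratio of mean signals was 4.86 for the OsSAP11 line over wild type and 9.43 for the OsRLCK253 line over wild type.

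**Figure D1:**
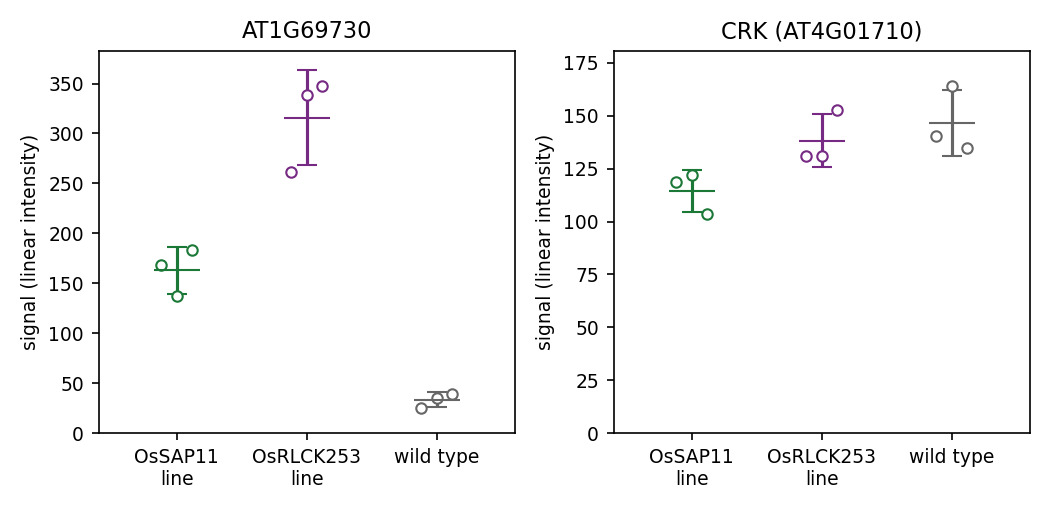
Signals (linear intensity) of AT1G69730, left, and CRK, right, by group. Open circles are the 3 arrays of a group, the long line is their mean and the bars are the SD. For AT1G69730 the 3 groups do not overlap, and for CRK the OsSAP11 arrays lie below the other 6.

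The test used log2 values after adding 16 to each signal, which makes changes of dim genes smaller. On that scale AT1G69730 rose in the OsSAP11 line by 1.86 ± 0.16 (SE), with an adjusted p of 0.00129 by limma with Benjamini-Hochberg adjustment over all probe sets. In the OsRLCK253 line it rose by 2.75 ± 0.16 (SE, adjusted p = 0.000247 by limma). These changes equal folds of 3.62 and 6.71 of the values with 16 added. All 3 arrays of each line showed the direction. Among the 22746 probe sets tested, the rise ranked 33rd in the OsSAP11 line and 16th in the OsRLCK253 line. The gene was chosen with these rises known, and both comparisons share the wild type arrays, so the ranks and p values describe the gene and are not independent support.

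The direct comparison of the lines tests the order of the levels. AT1G69730 was lower in the OsSAP11 line than in the OsRLCK253 line by a log2 difference of -0.89 ± 0.16 (SE, adjusted p = 0.0316 by limma). All 3 OsSAP11 arrays lay below the 3 OsRLCK253 arrays, as they did for 37.5% of all probe sets. The call of this difference was less stable than the calls against wild type. It was kept in 3 of 9 fits that left out 1 array. It was lost without any 1 of the 3 OsSAP11 arrays, without OsRLCK253 replicate 2 or 3, or without wild type replicate 2, with adjusted p values from 0.0522 to 0.0905 by limma and differences from -0.97 to -0.78. It was lost as well in a fit of the 2 lines alone (adjusted p = 0.0659 by limma). The rises against wild type were called in all 9 such fits in each line.

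**Figure D2:**
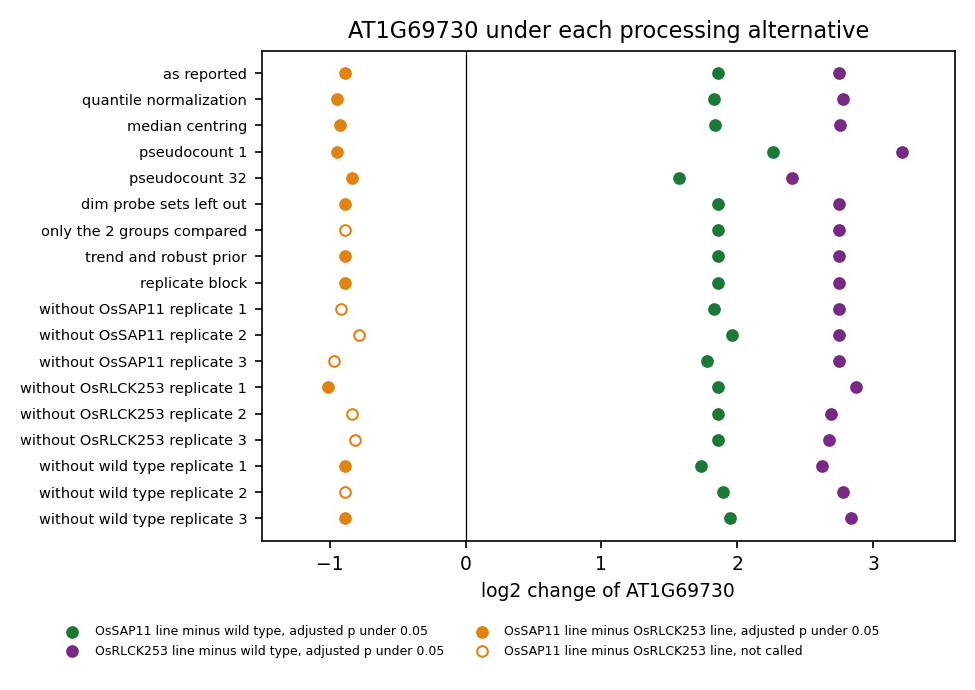
Log2 change of AT1G69730 in the 3 comparisons (x axis) under each processing alternative (rows). Filled points had an adjusted p under 0.05 and open points did not. The rises against wild type are filled in every row, and the difference between the lines is open in 7 rows.

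CRK did not pass the test in any of the 3 comparisons. Its signal was 119, 122 and 103 on the OsSAP11 arrays, against 140, 164 and 135 on the wild type arrays. On the OsRLCK253 arrays it was 131, 131 and 153, within and just below the wild type range. The OsSAP11 arrays lay below the wild type arrays, as for 13.9% of all probe sets, and below the OsRLCK253 arrays, as for 37.5%. The OsRLCK253 and wild type arrays of CRK overlapped. The log2 change was -0.31 ± 0.09 (SE, adjusted p = 0.0810 by limma) in the OsSAP11 line and -0.075 ± 0.094 (SE, adjusted p = 0.589 by limma) in the OsRLCK253 line. It was -0.24 ± 0.09 (SE, adjusted p = 0.171 by limma) for the OsSAP11 line minus the OsRLCK253 line. The value in the OsSAP11 line lay close to the threshold. It passed with an adjusted p of 0.0494 by limma after centring the arrays on their medians. With dim probe sets left out the adjusted p was 0.0496 by limma. It passed in 0 of 9 fits that left out 1 array, with adjusted p values up to 0.207 by limma. Its adjusted p by limma was 0.152 with replicate blocks, 0.119 with the 2 groups alone and 0.101 with a trend and a robust prior.

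Of the 2 genes, 1 rose and 0 fell in each line against wild type, and in each case the gene was AT1G69730. Over all probe sets, 12.6% were called in the OsSAP11 line, with 7.44% higher and 5.17% lower. For the OsRLCK253 line the share was 13.8%, with 6.95% higher and 6.85% lower. Between the lines 1 of the 2 genes was lower in the OsSAP11 line and 0 were higher, where 5.21% of all probe sets were called, 1.87% lower and 3.34% higher. All arrays of the OsSAP11 line lay above those of wild type for 17.8% of all probe sets and below them for 13.9%. For the OsRLCK253 line these shares were 34% and 12.4%, and for the OsSAP11 line against the OsRLCK253 line 13.1% and 37.5%. The median log2 change of all probe sets was -0.0021 for the OsSAP11 line, with 5th and 95th percentiles of -0.48 and 0.51. For the OsRLCK253 line it was 0.014, with percentiles of -0.56 and 0.51. The changes of AT1G69730 lay outside these ranges and those of CRK inside. With 2 genes the counts say nothing of kinases as a class.

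**Figure D3:**
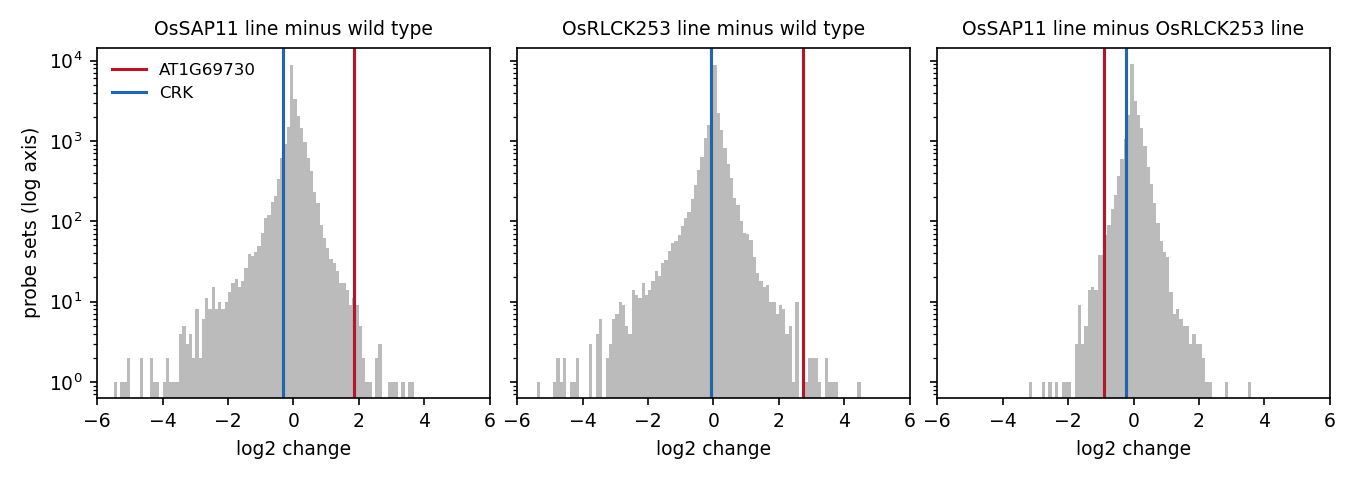
Histograms of the log2 change of all 22746 probe sets in the 3 comparisons, with the number of probe sets on a log axis. The red line marks AT1G69730, in the right tail in both lines, and the blue line marks CRK, near the centre.

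The arrays differed between the groups in control measures as well. The mean log2 signal of the hybridisation spike-ins, transcripts added to every sample, was 9.63 ± 0.03 in the OsSAP11 line, 9.72 ± 0.14 in the OsRLCK253 line and 9.88 ± 0.13 in wild type (SD, n = 3 each). The two-sided exact permutation p was 0.1 for the OsSAP11 line against wild type, the smallest that 3 arrays against 3 allow, and 0.2 for the OsRLCK253 line. The log2 ratio of 3' to 5' signal, a measure of RNA integrity, differed from wild type by -0.14 to 0.31 over 6 control pairs in the OsSAP11 line and by -0.13 to 0.22 in the OsRLCK253 line. In 3 of the 6 pairs, those of 1 actin, 1 GAPDH and 1 ubiquitin control, the ratio was higher in each line than in wild type with an exact permutation p of 0.1, the smallest possible. The part of these differences in the changes of AT1G69730 was not tested.

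Tissue markers were checked because whole seedlings mix organs, and in such samples fewer cells of a type and less RNA per cell cannot be told apart. Of 7 listed green tissue markers 2 were named alone by a probe set, and of 7 root markers 2 were. None of the 1 shoot meristem marker, 4 flower markers and 4 seed markers was named alone by a probe set. The green tissue gene RCA, which encodes rubisco activase, had a signal of 23806 ± 1168 in the OsSAP11 line, 25816 ± 599 in the OsRLCK253 line and 18604 ± 1581 in wild type (SD, n = 3 each). It rose in both lines, by 0.36 in the OsSAP11 line (adjusted p = 0.0141 by limma) and by 0.48 in the OsRLCK253 line (adjusted p = 0.00419 by limma). LHCB4.2, which encodes an antenna protein of photosystem II, rose as well, by 0.74 in the OsSAP11 line (adjusted p = 0.000914 by limma) and by 0.78 in the OsRLCK253 line (adjusted p = 0.000462 by limma). The root gene PYK10, a beta-glucosidase of endoplasmic reticulum bodies, was bright in every group, at 6984 ± 745, 7994 ± 1329 and 6783 ± 873 in the OsSAP11 line, the OsRLCK253 line and wild type (SD, n = 3 each). Its changes of 0.044 and 0.23 did not pass (adjusted p = 0.965 and 0.344 by limma). EXPA7, a root-hair expansin gene, was near background, with signals from 8.30 to 15.5, 13.9 to 29.0 and 5.41 to 8.50 in those groups. It rose by 0.74 in the OsRLCK253 line (adjusted p = 0.0389 by limma), and its change of 0.19 in the OsSAP11 line did not pass (adjusted p = 0.664 by limma). The green markers moved in the same direction as AT1G69730 in both lines, by less. Their part in its rise was not tested.

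By symbol or RefSeq synonym, the names of 3 further kinase genes lie just outside the choice. These genes were looked up after the annotation was read. Kinase genes without such a name there, such as APK1A described below, are not among them. ATMPK8 and ATMPK13 are MAP kinases whose symbols carry a leading AT, and AT5G18610 has PBL27, a receptor-like cytoplasmic kinase, among its RefSeq synonyms. None of the 3 passed the test in any comparison. Over all probe sets, 12.6% passed in the OsSAP11 line, 13.8% in the OsRLCK253 line and 5.21% between the lines. With 3 genes this count says nothing of related kinases as a class. ATMPK8 had signals of 205, 235 and 202 on the OsSAP11 arrays, against 147, 182 and 176 on the wild type arrays. The OsSAP11 values exceeded them all, as for 17.8% of all probe sets. On the OsRLCK253 arrays the signals of ATMPK8 were 160, 215 and 213, overlapping the wild type values. Its log2 change was 0.32 ± 0.13 (SE, adjusted p = 0.179 by limma) in the OsSAP11 line and 0.19 ± 0.13 (SE, adjusted p = 0.340 by limma) in the OsRLCK253 line. ATMPK13 was dim, with signals from 13.0 to 17.5 in the OsSAP11 line, from 14.6 to 26.9 in the OsRLCK253 line and from 11.1 to 14.3 in wild type. Its log2 change was 0.16 in the OsSAP11 line (adjusted p = 0.557 by limma) and 0.35 in the OsRLCK253 line (adjusted p = 0.119 by limma), and the change in the OsRLCK253 line passed without OsRLCK253 replicate 3 (0.47, adjusted p = 0.0377 by limma) and after median centring (0.37, adjusted p = 0.0477 by limma). AT5G18610 had signals from 4.35 to 4.62 over all 9 arrays, close to the lowest signal of any probe set, 3.17.

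Of 76 other genes listed as acting with kinases of the families sought by name, 9 were named alone by a probe set and are given here. The list includes partners of MAP kinases and the SnRK1 complex, of which the choice found no member. In each line against wild type 1 of the 9 rose and 2 fell, and between the lines 0 passed by limma. The shares over all probe sets are those given above for the 2 genes chosen by name. The median log2 change of the 9 was 0.0058 for the OsSAP11 line and 0.018 for the OsRLCK253 line. Those that fell were BIK1 and AKINBETA1, and the one that rose was AT4G16360.

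BIK1 encodes a receptor-like cytoplasmic kinase that acts beneath immune receptors. Its signals were 129, 134 and 130 on the OsSAP11 arrays, against 229, 240 and 243 on the wild type arrays. On the OsRLCK253 arrays they were 175, 114 and 180, all below the wild type values and more spread than in either other group. BIK1 fell by 0.79 on the log2 scale in the OsSAP11 line (SE 0.15, adjusted p = 0.0174 by limma) and by 0.58 in the OsRLCK253 line (SE 0.15, adjusted p = 0.0460 by limma). The call in the OsSAP11 line was kept in 4 of 9 fits that left out 1 array and lost without any 1 OsSAP11 array or without wild type replicate 1 or 3, with adjusted p values up to 0.0590 by limma. The call in the OsRLCK253 line was kept in 3 of 9 and lost without any 1 array of the OsSAP11 line or of wild type, with adjusted p values from 0.0774 to 0.120 by limma. It was lost as well in a fit of the 2 groups alone (adjusted p = 0.134 by limma) and after quantile normalization (adjusted p = 0.0566 by limma). The difference between the lines, -0.20 ± 0.15 (SE, adjusted p = 0.379 by limma), passed without OsRLCK253 replicate 2 (-0.40, adjusted p = 0.00803 by limma).

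AKINBETA1 and AT4G16360, which RefSeq also lists as KINbeta1 and KINbeta2, are beta subunits of the SnRK1 kinase complex, an energy sensor. They moved in opposite directions. AKINBETA1 had signals of 206, 245 and 267 on the OsSAP11 arrays, against 559, 379 and 416 on the wild type arrays. On the OsRLCK253 arrays they were 180, 185 and 249, also all below wild type. It fell by 0.86 on the log2 scale in the OsSAP11 line (SE 0.18, adjusted p = 0.0264 by limma) and by 1.08 in the OsRLCK253 line (SE 0.18, adjusted p = 0.0109 by limma). AT4G16360 had signals of 236, 234 and 244 on the OsSAP11 arrays, against 187, 207 and 183 on the wild type arrays. On the OsRLCK253 arrays they were 239, 282 and 272, and both lines stood wholly above wild type. It rose by 0.29 in the OsSAP11 line (SE 0.07, adjusted p = 0.0342 by limma) and by 0.43 in the OsRLCK253 line (SE 0.07, adjusted p = 0.00762 by limma). In the OsRLCK253 line both calls were kept in all 9 fits that left out 1 array. In the OsSAP11 line that of AKINBETA1 was kept in 4 of 9 and lost without any 1 OsSAP11 array or without wild type replicate 1 or 3. That of AT4G16360 was kept in 3 of 9 and lost without the same 5 arrays or without OsRLCK253 replicate 3. Adjusted p values in these lost calls reached 0.0861 for AKINBETA1 and 0.110 for AT4G16360 by limma. The call of AT4G16360 in the OsSAP11 line was also lost after quantile normalization (adjusted p = 0.0843 by limma), after median centring (0.0582) and with a trend and a robust prior (0.0678).

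**Figure D4:**
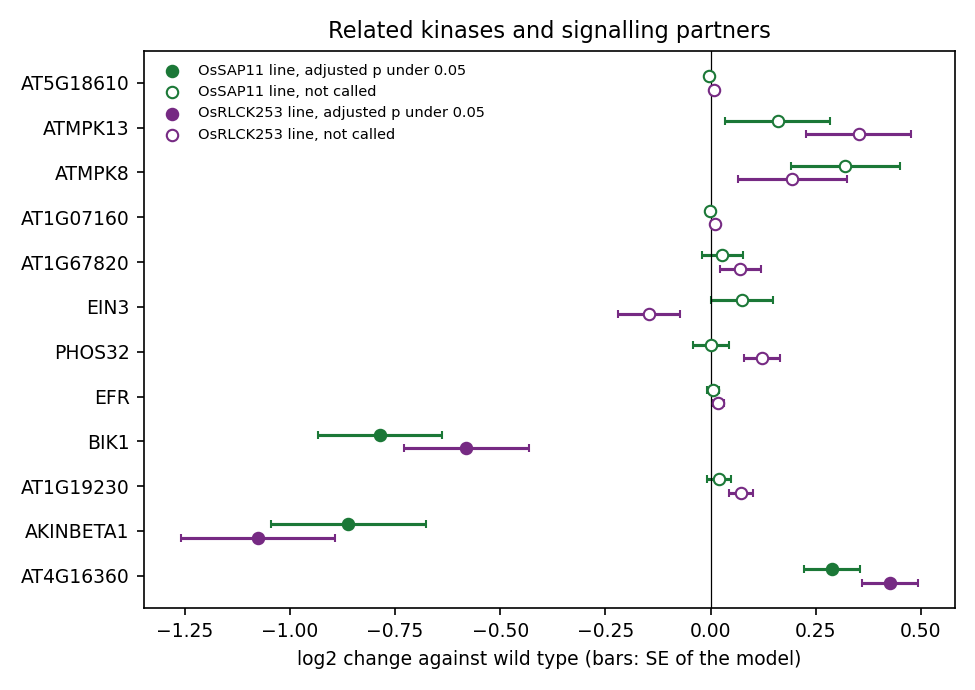
Log2 change against wild type (x axis) of the 3 kinase genes just outside the choice and of the 9 measured partner genes, in the OsSAP11 line (green) and the OsRLCK253 line (purple). Bars are the SE of the model, and filled points had an adjusted p under 0.05: BIK1 and AKINBETA1 on the left and AT4G16360 on the right.

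The remaining 6 partner genes did not pass in either line with all 9 arrays. EIN3, a transcription factor of ethylene signalling, had a mean signal of 666 ± 18.7 in the OsSAP11 line, 569 ± 9.29 in the OsRLCK253 line and 634 ± 73.1 in wild type (SD, n = 3 each). PHOS32, which encodes a phosphoprotein that MAP kinases modify, had 404 ± 11.2 in the OsSAP11 line, 441 ± 10.6 in the OsRLCK253 line and 404 ± 23.2 in wild type (SD, n = 3 each). Without wild type replicate 2, EIN3 passed in the OsSAP11 line (0.16, adjusted p = 0.0384 by limma) and PHOS32 in the OsRLCK253 line (0.17, adjusted p = 0.0282 by limma). The difference of EIN3 between the lines, 0.22 (adjusted p = 0.133 by limma), also passed without that array (adjusted p = 0.0256 by limma). The receptor gene EFR, which recognises bacterial elongation factor Tu, had signals from 5.55 to 6.20 over all arrays, near background. The listed phosphatase genes AT1G07160 and AT1G67820 and the listed oxidase gene AT1G19230 were as dim, with signals from 4.54 to 4.79, from 7.62 to 10.7 and from 5.14 to 7.49.

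The genes nearest to AT1G69730 on the chromosome that a probe set named alone, called measured genes here, were examined next to it. Genes without such a probe set were passed over, so these are not always the nearest genes on the chromosome. Of the 3 nearest measured genes on each side, taken in the order of the RefSeq table, 0 rose and 2 fell in each line, beside shares of all probe sets called lower of 5.17% for the OsSAP11 line and 6.85% for the OsRLCK253 line, and all 6 had smaller changes than AT1G69730. HEMB1, the next measured gene on one side, which encodes an enzyme of chlorophyll and haem synthesis, fell by 0.28 in the OsSAP11 line (SE 0.06, adjusted p = 0.0304 by limma) and by 0.33 in the OsRLCK253 line (SE 0.06, adjusted p = 0.0151 by limma). AT1G69790 fell by 0.48 in the OsSAP11 line and by 0.41 in the OsRLCK253 line (adjusted p = 0.00335 and 0.00475 by limma), with signals from 6.13 to 6.22, from 6.30 to 7.95 and from 13.0 to 17.8 in the OsSAP11 line, the OsRLCK253 line and wild type. All of its signals are near 16 or below, so adding 16 shrank these changes. Of the 6 measured genes nearest to CRK, 0 rose and 1 fell in the OsSAP11 line, and 1 rose and 1 fell in the OsRLCK253 line, beside the shares of 12.6% and 13.8% of all probe sets called in either direction. The one that rose, AT4G01700, did so by 1.14 (SE 0.19, adjusted p = 0.00928 by limma), with signals of 148, 116 and 164 in the OsRLCK253 line, against 41.2, 70.9 and 56.7 in wild type.

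The genes whose pattern was most like that of AT1G69730 were sought after its values had been seen, by Pearson's r of log2 values over the 9 arrays. The search covered 6246 other genes with a group mean above 44.7, the median of all signals. The 9 arrays fall into 3 separate groups, so r mostly follows the group means, and it is given as a description. In all, 69 genes had r above 0.95, 7 had r above 0.98 and 58 had r under -0.95, while the median r was 0.0063. The most alike was AT5G35970 (r = 0.996), with a mean signal of 979 ± 88.6 in the OsSAP11 line, 1413 ± 207 in the OsRLCK253 line and 329 ± 42.8 in wild type (SD, n = 3 each). AT4G37550, AT1G51400, AT4G12980 and SAMDC followed, with r from 0.982 to 0.990. SAMDC encodes S-adenosylmethionine decarboxylase, an enzyme of polyamine synthesis. Its signals averaged 8101 ± 288, 9357 ± 436 and 5899 ± 200 in the OsSAP11 line, the OsRLCK253 line and wild type (SD, n = 3 each). The tenth gene was itself a protein kinase gene, APK1A (r = 0.975), with 101 ± 6.64, 117 ± 6.76 and 75.6 ± 1.88 in those groups. Among these 10 genes the rise of APK1A in the OsRLCK253 line, 0.54, was near the smallest, 0.50 for AT1G51400, and that of AT5G35970, 2.05, was the largest. All 10 rose by less than AT1G69730 in both lines.

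**Figure D5:**
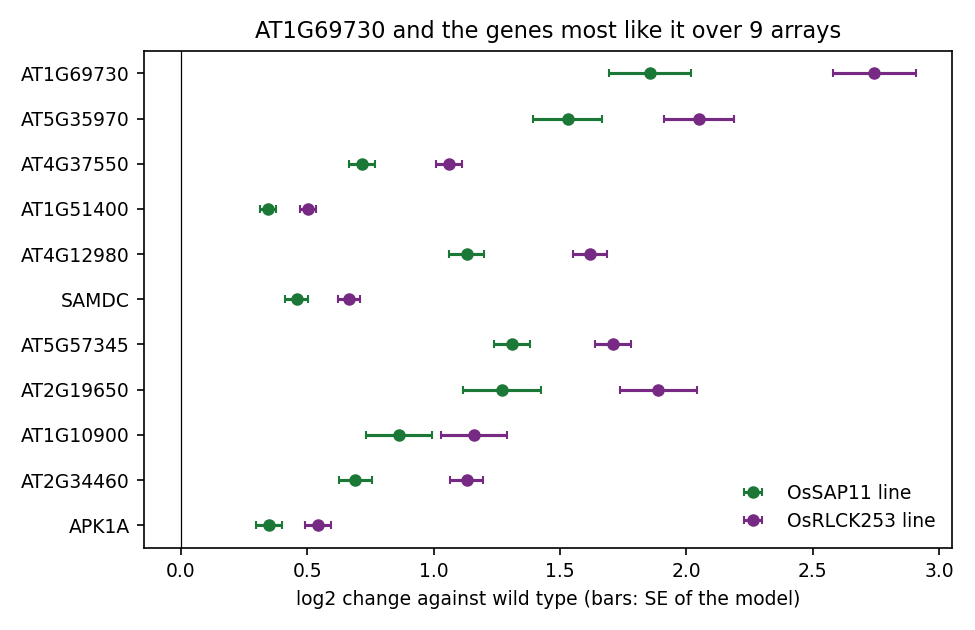
Log2 change against wild type (x axis, bars are the SE of the model) of AT1G69730 and of the 10 genes with the highest correlation to it over the 9 arrays, in the OsSAP11 line (green) and the OsRLCK253 line (purple). In every row the purple point lies to the right of the green one, an order that the choice of genes by correlation favours. AT1G69730 has the largest change in both lines.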

How the data were processed

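RNA of seedlings was hybridised as biotin-labelled cRNA, per the labels' protocols. The authors deposited a linear intensity for each probe set on each array. GCOS is the software in the submitters' processing notes. The summarisation, background correction and scaling of signals were not given in the sources used here. Of 22810 probe sets, 64 controls were set aside and 22746 tested without a filter. By GEO's platform annotation 13513 of them name 1 gene, 503 several and 8730 none. Symbols were checked against RefSeq (assembly TAIR10.1), which matched 13436 of the 13513 and gave the same 2 genes. Array medians differed by up to 0.0777 on the scale of log2(signal + 16), so values were used as deposited. Without the added 16, and with the controls included, the median signals of the arrays ran from 43.2 to 46.5.

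Log2(signal + 16) was fitted by limma 3.58.1, run in R 4.3.3, with 1 mean per group over the 9 arrays (lmFit and eBayes, 6 residual and 0.773 prior degrees of freedom). P values are two-sided and adjusted over all probe sets, with a call under 0.05. The procedure was tested on simulated data. Signals ranged from 3.17 to 43695, and the number of arrays limits the precision. No pair of arrays was identical. Correlations within groups were 0.993 to 0.997.

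The genes and lists were chosen with earlier results of these data known. Any gene chosen by name could be named, with up to 12 called partner genes per comparison, largest change first. Promoter motifs and sequences were planned and are not analysed here, as no sequence table was used. Coordinates are not printed. The alternatives tried were pseudocounts of 1 and 32, median centring, quantile normalization, leaving out probe sets with all group means under 32, the 2 groups compared alone, a trend with a robust prior, replicate blocks, any probe set per gene, RefSeq symbols, stricter thresholds and each array left out.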

Additional observations from a re-analysis of the deposited data

How the results depend on the processing

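The rises of AT1G69730 kept their direction and their call under all 17 alternatives, with log2 changes from 1.57 to 2.26 in the OsSAP11 line and from 2.41 to 3.21 in the OsRLCK253 line, each from a pseudocount of 32 to one of 1. The count of the 2 genes called in the OsSAP11 line was 1, and 2 after median centring or with dim probe sets left out, where CRK also passed. These 2 settings called more probe sets of all kinds in that line. The numbers were 3215 of 22746 after centring and 3586 of 12750 without dim ones, against 2869 of 22746 as reported. Between the lines the count of the 2 genes was 1, and 0 with the 2 groups alone or at an adjusted p under 0.01. It ranged from 0 to 1 over fits that left out 1 array. With the 3 kinase genes just outside the choice in place of the 2, an alternative chosen after seeing the data, it was 0 in all 3 comparisons.

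The count of partner genes in the OsSAP11 line was 3. It was 2 with quantile normalization, median centring, a trend with a robust prior or at least 1.5-fold changes required, 1 with the replicate block and 0 at an adjusted p under 0.01, and ranged from 0 to 4 without 1 array. In the OsRLCK253 line it was 3, 2 with quantile normalization, the 2 groups alone or the replicate block, 1 at an adjusted p under 0.01 or with at least 1.5-fold changes required, and from 2 to 3 without 1 array. Between the lines it was 0, and 1 with the 2 groups alone, and from 0 to 1 without 1 array. The replicate numbers were not taken to pair the arrays, since same-numbered arrays had deviations correlated at r from -0.13 to 0.18. For arrays of other groups and other numbers r ran from -0.25 to 0.17. Of 9 arrays 5 were closest to another of their own number, an observation from the data and not from the design. The replicate block changed no call of AT1G69730 or CRK. With it BIK1 in the OsRLCK253 line (adjusted p = 0.0841 by limma) and AKINBETA1 and AT4G16360 in the OsSAP11 line (0.0670 and 0.0516) were not called. The cause of these changes was not tested.

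Changes of sign were seen only in changes that were not called. With quantile normalization AT5G18610 had -0.00077 in the OsRLCK253 line and 0.00031 between the lines, AT1G07160 had 0.0015, -0.00055 and 0.0020 in the OsSAP11 line, the OsRLCK253 line and between them, AT1G67820 had 0.014 and EFR 0.015 between the lines, EFR had -0.0028 in the OsRLCK253 line, and PHOS32 had -0.0080 in the OsSAP11 line. Median centring gave PHOS32 -0.016 and EFR -0.012 in the OsSAP11 line. Without 1 array, changes in the OsSAP11 line ranged from -0.0028 to 0.00026 for AT1G07160, from -0.010 to 0.076 for AT1G67820, from -0.032 to 0.045 for PHOS32 and from -0.0072 to 0.014 for EFR. Likewise they ranged from -0.081 to 0.0052 for AT1G67820 between the lines, from -0.14 to 0.0026 for CRK in the OsRLCK253 line, and from -0.0017 to 0.19 for ATMPK8 between the lines. Probe sets called over the whole array numbered 2869, 3138 and 1185 in the 3 comparisons and between the lines 609 with the 2 groups alone and 639 with the replicate block. The submitters' summarisation is unknown, and signals near background limit what can be seen of falls in dim genes.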
